A study of Mus musculus with 8 samples.

Results

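The HoxC cluster genes are 9 homeobox genes, Hoxc4, Hoxc5, Hoxc6, Hoxc8, Hoxc9, Hoxc10, Hoxc11, Hoxc12 and Hoxc13, that lie side by side on mouse chromosome 15. They were chosen by name, as the array probes whose RefSeq accession maps to one of these symbols, and each was measured by 1 probe, so the set holds 9 of the 36799 genes and other targets on the array. Epidermis from the back skin of newborn (P0) mice was profiled in 4 EED cKO and 4 control samples. EED cKO mice carried K14-Cre and EED flox/flox, so that Eed, which encodes an essential subunit of Polycomb repressive complex 2 (PRC2), was removed where the keratin 14 promoter drives Cre, which is in epidermal keratinocytes and the cells that descend from them, and not in skin cells of other origin. The control samples are labelled only as CTL, with no alleles given. Both groups are labelled as C57BL/6 and untreated, and each sample is labelled as a biological replicate. Each array compared the RNA of 1 sample with Universal Mouse Reference RNA, a pool of RNA that was the same on all 8 arrays. The sample was labelled with the dye Cy3 in replicates 1 and 3 of each genotype and with Cy5 in replicates 2 and 4.

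Hox genes encode transcription factors that give cells their position along the body axis. Within a cluster, genes at one end, such as Hoxc4, are used in anterior parts of the embryo, and genes at the other end, up to Hoxc13, in progressively more posterior parts. PRC2 methylates histone H3 and thereby helps to keep Hox genes silent outside their domains, and Hox clusters are among its best known targets. In the skin, Hox expression differs between body sites, and Hoxc13 is required for normal hair and nail.

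Hoxc4 and Hoxc9 were the HoxC genes called changed in EED cKO epidermis. Hoxc4 was 2.31-fold lower and Hoxc9 was 4.73-fold higher. Hoxc5 and Hoxc6 were also lower, and Hoxc11 was higher, by less than 2-fold. Hoxc8, Hoxc10 and Hoxc13 did not pass the test, and Hoxc12 was too dim to be tested. All values are log2 ratios of sample over reference, and a fold change is the difference of these ratios between genotypes from a limma fit with genotype and dye as terms. The word called is kept for genes with both an adjusted p below 0.05 and a difference of 2-fold or more. On that rule 1 of the 8 tested members was called higher and 1 was called lower, where 1.1% of the 23135 tested targets were called higher and 0.0994% lower. At an adjusted p below 0.05 and any fold, 2 members were higher and 3 were lower, where 11.8% and 9.93% of all tested targets were, 21.7% in all. The median log2 fold change was 0.09 over the 8 tested members and 0.02 over all tested targets.

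The targeted gene Eed had log2 ratios of -1.74, -2.04, -1.78 and -1.66 on the EED cKO arrays and -0.18, -0.46, -0.31 and -0.43 on the control arrays, a log2 fold change of -1.46 ± 0.09 (SE, n = 4 per genotype, limma adjusted p = 2.12e-05), and the position of its probe relative to the deleted part of the gene was not analysed here. In the sample channel 51.5% to 65.5% of the spots of an array carried the scanner program's flag for a signal well above background, and none was saturated. The arrays of the 2 genotypes lay in separate rows of 1 slide, so row and genotype cannot be told apart. Y-linked genes were high on control replicates 2 and 3 and low on the other 6 arrays, so the sexes were not balanced. The HoxC calls were the same with the Y-linked level as a covariate.

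**Figure D1:**
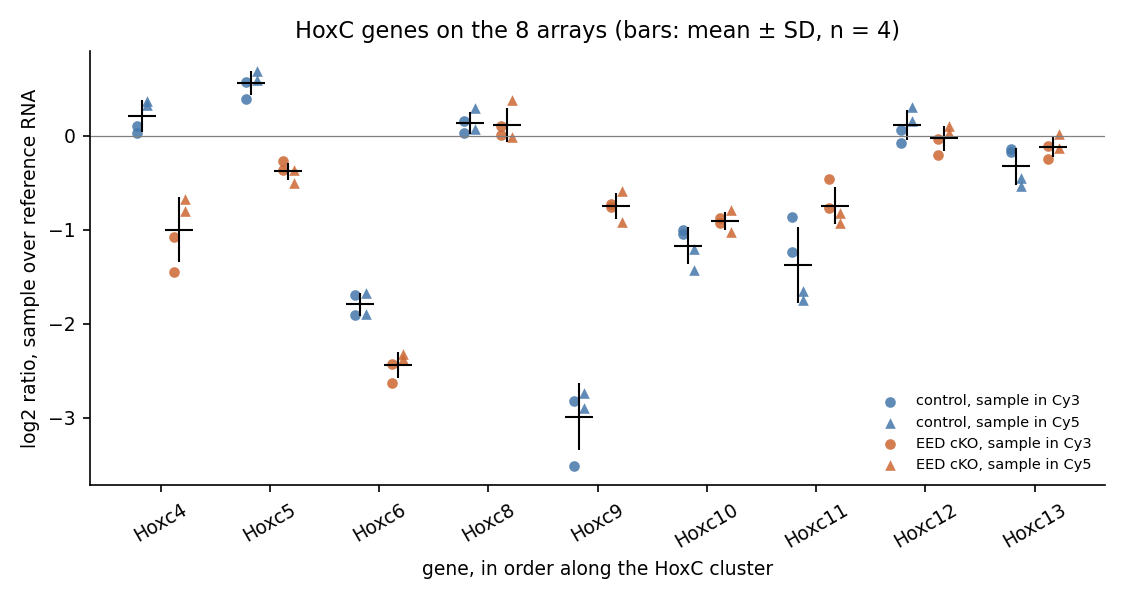
Log2 ratio of sample over reference RNA (y axis) of each HoxC gene in cluster order (x axis) on the 8 arrays, with circles for samples in Cy3 and triangles for samples in Cy5, and black bars for the mean ± SD of 4 arrays. The groups are apart for Hoxc4, Hoxc5 and Hoxc6, where EED cKO is lower, and for Hoxc9, where EED cKO is higher.

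Hoxc4, Hoxc5 and Hoxc6 lie at the anterior end of the cluster. Hoxc4 acts in the neck and upper trunk, where it contributes to vertebral patterning. Its log2 ratios were 0.10, 0.33, 0.03 and 0.37 in control replicates 1 to 4 and -1.45, -0.80, -1.07 and -0.68 in EED cKO replicates 1 to 4. Every EED cKO array was below every control array, with a gap of 0.71 between the nearest arrays of the 2 groups. The group means were 0.21 ± 0.17 in control and -0.999 ± 0.34 in EED cKO (SD, n = 4 each), and the log2 fold change was -1.21 ± 0.10 (SE, limma adjusted p = 0.000107). Hoxc4 was well above background on all 8 arrays, with a median spot signal of 499.5 to 1054 in control and 183 to 375 in EED cKO before normalisation.

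Hoxc4 was the only member for which a promoter sequence was at hand, and the sequence is shown because Hoxc4 was the HoxC gene called lower. The 250 bases before its RefSeq start, at chr15:103034145-103034394 on the plus strand of GRCm38.p6, are given 5′ to 3′ with CG dinucleotides in capitals.
Hoxc4 promoter: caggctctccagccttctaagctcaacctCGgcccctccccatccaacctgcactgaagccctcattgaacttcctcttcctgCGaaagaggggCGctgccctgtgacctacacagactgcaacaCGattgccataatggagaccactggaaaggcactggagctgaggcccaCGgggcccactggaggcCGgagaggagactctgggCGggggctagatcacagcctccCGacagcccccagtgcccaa
The window holds 8 CG dinucleotides, and 43.0% of 32851 promoter windows of the same length in the RefSeq set hold as many or more. The 4 letters TAAT, the core that many homeodomain proteins prefer, occur 1 time on either strand, and 54.9% of all windows hold at least 1. These counts describe the letters alone, and no binding or histone mark was measured on these arrays.

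Hoxc5, a neighbour of Hoxc4 that is likewise used in anterior regions, had log2 ratios of 0.39, 0.69, 0.57 and 0.59 in control and -0.27, -0.50, -0.37 and -0.37 in EED cKO. The groups did not overlap. The log2 fold change was -0.94 ± 0.09 (SE, limma adjusted p = 0.000214), which is 1.92-fold lower and so just short of the 2-fold limit. Its spot was dim, with a median signal of 69 to 128.5 in control and 37 to 53.5 in EED cKO, and it was well above background on 3 of the 4 EED cKO arrays. The size of the change depended on how the signals were processed. In the log ratios of Agilent's own Feature Extraction program Hoxc5 was 5.31-fold lower, a larger fall than the 2.62-fold of Hoxc4 on that scale, and Hoxc5 was then called changed.

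Hoxc6, which is expressed in the thoracic region and in the developing mammary gland, fell by a smaller amount. Its log2 ratios were -1.69, -1.68, -1.90 and -1.90 in control and -2.63, -2.32, -2.43 and -2.37 in EED cKO, again with no overlap. The log2 fold change was -0.65 ± 0.09 (SE, limma adjusted p = 0.00172), or 1.57-fold lower, with the gene well above background on all 8 arrays.

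Hoxc8 and Hoxc9 lie in the middle of the cluster and act in the trunk, Hoxc8 in the motor neurons that serve the forelimb and Hoxc9 in those of the thorax. Hoxc8 had log2 ratios of 0.15, 0.30, 0.03 and 0.07 in control and 0.10, 0.38, 0.00 and -0.02 in EED cKO. The groups overlapped throughout, and the log2 fold change was -0.02 ± 0.10 (SE, limma adjusted p = 0.899). The median spot signal was only 32 to 58 over the 8 arrays, and 3 arrays of each genotype were well above background, so a change near the background could not be resolved.

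Hoxc9 stood at -2.82, -2.73, -3.51 and -2.89 in control and at -0.72, -0.59, -0.76 and -0.92 in EED cKO. All EED cKO arrays were above all control arrays, with a gap of 1.81 between the nearest. The means were -2.99 ± 0.35 in control and -0.75 ± 0.14 in EED cKO (SD, n = 4 each), and the log2 fold change was 2.24 ± 0.15 (SE, limma adjusted p = 4.08e-05). The median spot signal was between 50 and 137.5 on the control arrays and between 323 and 577 on the EED cKO arrays, while the reference channel of the same spots read 1093.5 to 1529. The spot exceeded background clearly on 3 control arrays and on each EED cKO array. In the Feature Extraction log ratios it was 14.1-fold higher, a size that rested on control replicate 3, whose ratio was -7.62 on that scale against -4.10, -3.21 and -3.57 on the other control arrays. Without that array the Feature Extraction difference was 7.26-fold, and in the limma fit to the normalised ratios it was 4.19-fold.

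Hoxc10, Hoxc11, Hoxc12 and Hoxc13 form the posterior end. Hoxc10 and Hoxc11 pattern the lumbar and sacral region and the hindlimb. Hoxc10 had log2 ratios of -0.998, -1.43, -1.04 and -1.21 in control and -0.88, -1.02, -0.93 and -0.79 in EED cKO. The groups overlapped by 0.02 across the dyes and were apart within each dye. Each dye holds only 2 arrays per genotype, which are easily apart, and the share of all targets apart in this way was not counted. The log2 fold change was 0.26 ± 0.09 (SE, limma adjusted p = 0.0700), and with the replicate number as a block in place of the dye the adjusted p was 0.0478. In the Feature Extraction log ratios Hoxc10 was 1.55-fold higher (limma adjusted p = 0.0213). Hoxc10 was well above background on 2 control and 4 EED cKO arrays, with spot signals of 31.5 to 57.5 and 34 to 59. It therefore passed the filter only through EED cKO, which favours a higher result, so its p-values are not taken as support.

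Hoxc11 had log2 ratios of -0.86, -1.75, -1.24 and -1.65 in control and -0.77, -0.93, -0.47 and -0.82 in EED cKO. Control replicate 1 lay within the EED cKO range, so the groups overlapped. Within each dye, on only 2 arrays per genotype, they were apart. The differences were 0.43 between the arrays with the sample in Cy3 and 0.83 between those with the sample in Cy5. The log2 fold change was 0.63 ± 0.12 (SE, limma adjusted p = 0.00681), or 1.55-fold higher. The adjusted p was 0.0611 with neither the dye nor the replicate number in the fit, and 0.0110 with the replicate number as a block in place of the dye. Its spot was dim, with a median signal of 41 to 88 over the 8 arrays, and 3 control and 4 EED cKO arrays were well above background. In the Feature Extraction log ratios Hoxc11 was 3.02-fold higher and was called changed.

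Hoxc12 and Hoxc13 are both expressed in the growing hair follicle. Hoxc12 was well above background on 2 arrays of each genotype and was left out of the fit. Its log2 ratios were -0.08, 0.30, 0.06 and 0.16 in control and -0.03, 0.03, -0.21 and 0.10 in EED cKO, which overlapped. Hoxc13, the hair and nail regulator, had log2 ratios of -0.15, -0.46, -0.17 and -0.53 in control and -0.11, 0.02, -0.25 and -0.13 in EED cKO. The groups overlapped, and the log2 fold change was 0.21 ± 0.10 (SE, limma adjusted p = 0.167), although Hoxc13 was well above background on all 8 arrays. The difference was -0.02 with the sample in Cy3 and 0.44 with the sample in Cy5.

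In exact permutation tests on the 8 arrays, two-sided and without the dye, Hoxc4, Hoxc5, Hoxc6 and Hoxc9 each gave p = 0.0286, the smallest that 4 against 4 arrays allow. The exact permutation p was 0.0571 for Hoxc10 and Hoxc11, 0.143 for Hoxc13, 0.257 for Hoxc12 and 0.8 for Hoxc8. Groups that did not overlap were found for 17.2% of all tested targets.

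**Figure D2:**
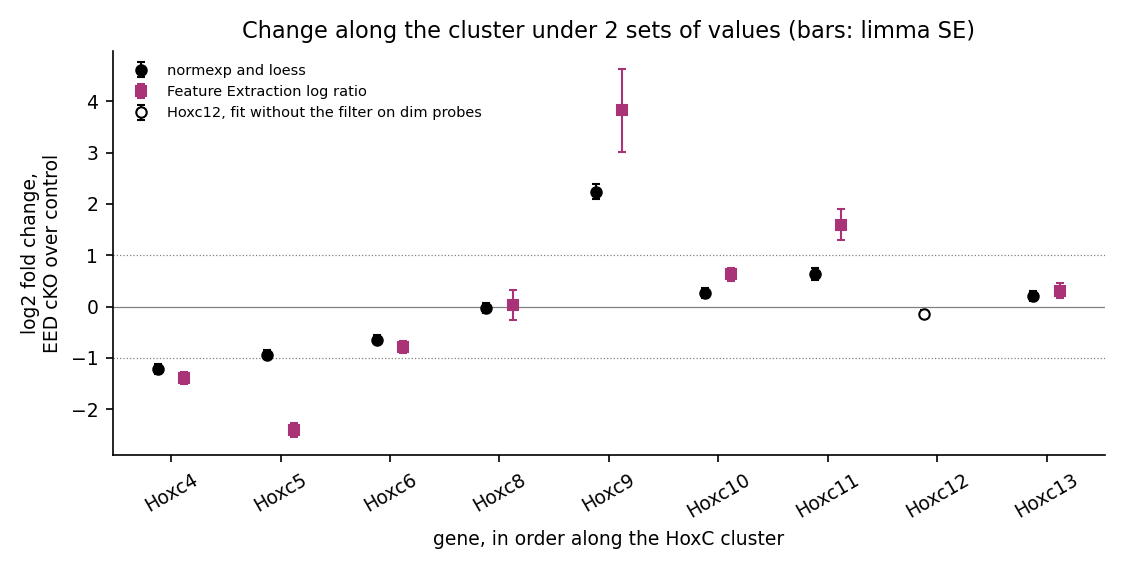
Log2 fold change of EED cKO over control (y axis) of the HoxC genes in cluster order (x axis), from the normexp and loess ratios (black) and the Feature Extraction log ratios (purple), with bars for the limma SE and dotted lines at 2-fold. The 3 anterior genes lie below 0 in both sets of values, Hoxc9 is the highest point in both, and Hoxc12 (open) comes from a fit without the filter on dim probes.

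Along the cluster, the 3 tested genes of the anterior end were lower in EED cKO, and the 4 tested genes from Hoxc9 onward had log2 fold changes above 0, of which 2 passed the test. Of these 4, Hoxc10 entered the test only through its EED cKO arrays, which favours a value above 0. The log2 fold changes did not follow the order gene by gene, because that of Hoxc9 exceeded those of both of its neighbours. These neighbours, Hoxc8 and Hoxc10, had dim spots, so changes of theirs near the background could not be resolved. The Spearman correlation between position in the cluster and log2 difference was 0.63 over the 9 members and 0.79 over the 8 tested members, given as a description, since the points share the same 8 arrays. As a description of where neighbouring genes differed, the log2 ratio of each gene minus that of its neighbour was taken on each array and compared between genotypes. The differences are made from the single-gene values given above, so they are no separate evidence. The share of all pairs of targets without overlap was not counted. These values did not overlap between genotypes for Hoxc8 with Hoxc6, whose log2 fold changes differed by 0.62, for Hoxc9 with Hoxc8, which differed by 2.26, and for Hoxc10 with Hoxc9, which differed by -1.98. Each of these pairs includes the dim Hoxc8 or Hoxc10, so the same limit applies to them. For the other 5 pairs of neighbours they overlapped over the 8 arrays. Of these, Hoxc12 with Hoxc11 was apart within each dye, by -0.54 with the sample in Cy3 and -0.99 with the sample in Cy5, on only 2 arrays per genotype in each. The other 4 pairs overlapped within at least 1 dye.

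To see whether the ratios moved through the sample or through the reference, the channels were compared apart. In the sample channel the log2 differences were -1.15 for Hoxc4, -0.85 for Hoxc5, -0.60 for Hoxc6, 2.19 for Hoxc9 and 0.55 for Hoxc11. In the reference channel, where both genotypes hold the same RNA, the differences of the 8 tested members ran from -0.10 to 0.09, and the lowest limma adjusted p was 0.543.

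**Figure D3:**
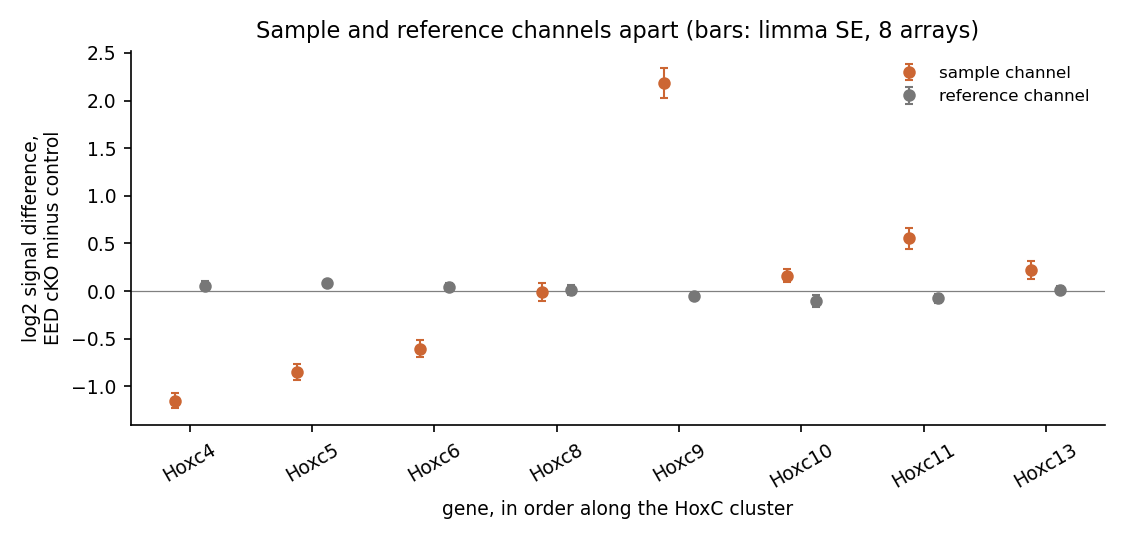
Log2 signal difference of EED cKO minus control (y axis) for the 8 tested HoxC genes (x axis) in the sample channel (orange) and the reference channel (grey), with bars for the limma SE over 8 arrays. The reference channel stays between -0.10 and 0.09, while the sample channel runs from -1.15 for Hoxc4 to 2.19 for Hoxc9.

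Genes of the same number in the HoxA, HoxB and HoxD clusters are paralogues, which descend from 1 ancestral gene. Among paralogues of Hoxc4, Hoxb4 had a log2 fold change of -0.63 and Hoxa4 of -0.32, both lower, whereas Hoxd4 was higher with 0.71 (limma adjusted p = 0.00457, 0.0286 and 0.000999). Hoxd4 was well above background on 4 EED cKO arrays and 2 control arrays, so it passed the filter only through EED cKO, unlike Hoxa4 and Hoxb4. For Hoxc5, both Hoxa5 (-0.77) and Hoxb5 (-0.67) were lower as well. For Hoxc6, Hoxa6 (0.04) and Hoxb6 (-0.07) did not pass the test. Hoxd8, a paralogue of Hoxc8, was higher with a log2 fold change of 2.20, and Hoxb8, at -0.39, did not pass the test.

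All 3 tested paralogues of Hoxc9 were higher, with log2 fold changes of 2.03 for Hoxd9, 1.20 for Hoxb9 and 0.29 for Hoxa9, the last below 2-fold. Hoxa10 (1.42) and Hoxd10 were higher than in control, as were Hoxa11 and Hoxd11, while Hoxc10 did not pass the test. In control, Hoxd10, Hoxa11, Hoxd11, Hoxd13 and Hoxb13 were not well above background on any array, so their folds are bounds, at least 1.42-fold, 1.36-fold, 1.49-fold, 1.30-fold and 15.9-fold higher in EED cKO. Each bound sets the mean of the EED cKO arrays against the lowest signal that counts as well above background, or the probe's own where that is higher. The limma adjusted p of these genes ran from 2.25e-07 to 0.00367. They passed the filter only through the EED cKO arrays, where they are high, so these p-values are not taken as support. Hoxd9 and Hoxa10 were well above background on 1 control array each and also passed the filter only through EED cKO. Hoxd12 and Hoxa13 were well above background on no array and were not tested. Called changed were 1 higher and 2 lower of 10 tested HoxA genes, 2 higher and 1 lower of 9 tested HoxB genes, and 2 higher and 0 lower of 6 tested HoxD genes, all on the same 8 arrays. Of all tested targets, 1.1% were called higher and 0.0994% lower. Among the HoxD genes, Hoxd4, Hoxd9, Hoxd10, Hoxd11 and Hoxd13 were tested only through their EED cKO arrays, which favours calls in the higher direction. Likewise, Hoxa6, Hoxa10, Hoxa11 and Hoxb13 were tested only through EED cKO. They include the HoxA gene called higher (Hoxa10) and 1 of the 2 HoxB genes called higher (Hoxb13).

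**Figure D4:**
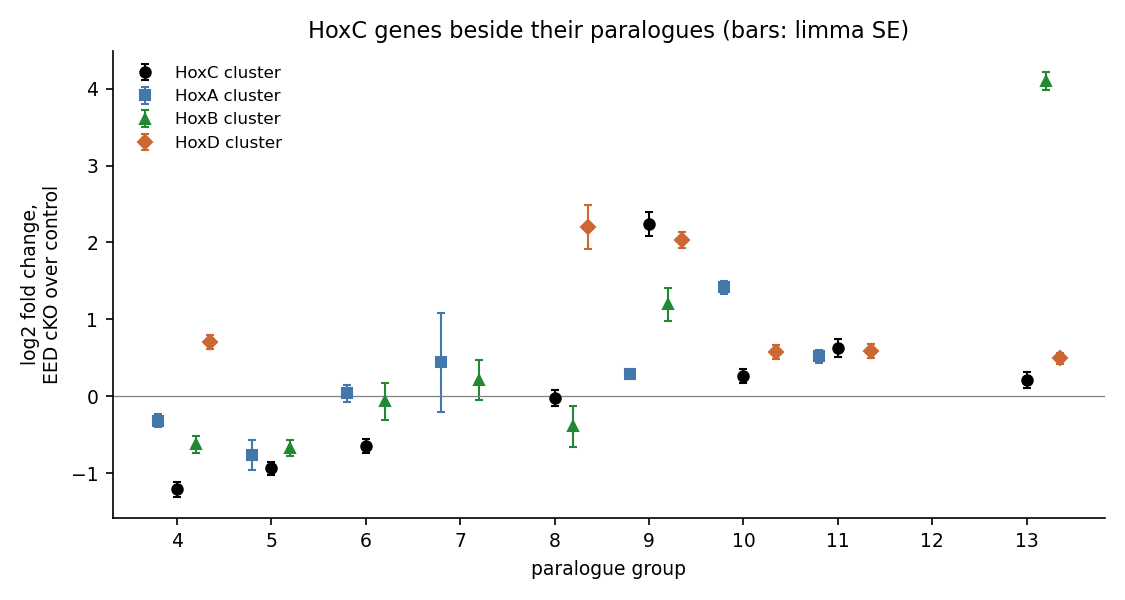
Log2 fold change of EED cKO over control (y axis) of the tested genes of paralogue groups 4 to 13 (x axis) in the HoxC (black), HoxA (blue), HoxB (green) and HoxD (orange) clusters, with bars for the limma SE. In group 9 all 4 clusters lie above 0, with Hoxc9 at 2.24, and in group 5 all 3 tested genes lie below 0. Hoxd10, Hoxa11, Hoxd11, Hoxd13 and Hoxb13 are drawn at their limma values. They were well above background on no control array, so their folds are known only as bounds.

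The genes on either side of the cluster were read to see how far the change reached. Of the 5 protein-coding genes on each side, 9 were tested and 1 passed at any fold, where 21.7% of all tested targets did. It was Hnrnpa1, an RNA-binding protein gene 3 genes beyond Hoxc4, with a log2 fold change of -0.31 (limma adjusted p = 0.0248). Calcoco1, next to Hoxc13, stood at 0.12 and Smug1, next to Hoxc4, at -0.08, and neither passed. Hotair, Hoxc13os, Mir196a-2 and Mir615, noncoding RNAs of the cluster, were matched to no probe and are not analysed here.

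Hox proteins bind DNA together with cofactors of the Pbx, Meis and Pknox families. Of the 9 cofactor genes, all tested, 3 were higher and 1 was lower at any fold, and 0 were called changed. For this list and the next, the shares over all tested targets at any fold were 11.8% higher and 9.93% lower. Meis1 was higher with a log2 fold change of 0.58 and Pbx3 was lower with -0.36. Of 17 hair keratins and hair genes tied to Hoxc13, 12 were tested, 4 were higher and 0 lower at any fold. Those with the largest changes were Krt84 (1.22, called changed) and Krt36 (0.97), which encode hair keratins, and the transcription factor gene Foxq1 (0.85), and the median of the 12 was 0.07.

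The genes most like Hoxc4 over the 8 arrays, by the root mean square difference of log2 ratios after each gene was centred on its control mean, were Slc43a1 (0.15), Hoxb2 (0.15) and P2ry1 (0.22). Those most like Hoxc9 were Hoxd9, Calml4 and Gm5476 (0.28 each).

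In whole epidermis, fewer cells of a type and less RNA per cell cannot be told apart. Each of 12 keratinocyte markers, Krt5 and Krt14 among them, was well above background on all 8 arrays, which fits the labelled tissue, and 1 was higher (Sfn, 0.23) and 2 were lower (Itga6, -0.74, and Col17a1, -0.33) at any fold. Merkel cell markers were higher for 6 of 6 tested of 7, with Krt20 (1.12), Atoh1 (0.88) and Isl1 (0.83) leading. Their summed log2 signal was 10.93 to 11.22 in EED cKO and 10.26 to 10.65 in control. Among these 6, Atoh1, Isl1 and another marker entered the test only through the EED cKO arrays, which favours a higher result. In control, Atoh1 and Isl1 each cleared background well on only 2 of 4 arrays, and the other marker on 0. Endothelial markers were higher for Pecam1 (0.89) and Kdr (0.62), the only 2 tested of 7, with a summed log2 signal of 12.10 to 12.52 in EED cKO and 11.31 to 11.96 in control, and Cdh5, Tek, Tie1 and Esam were well above background on no array. Dermal fibroblast markers were higher for 2 (Lum, 0.50, and Fbn1, 0.30) and lower for 1 (Postn, -0.98) of 11 tested, with a summed log2 signal of 15.08 to 15.14 in EED cKO and 15.12 to 15.57 in control. Fbn1 was well above background on 3 EED cKO and 2 control arrays, so it too entered the test only through EED cKO. Immune markers were higher for 2 of 6 tested (Cd3e, 0.54, and Cd74, 0.46), with a summed log2 signal of 12.21 to 12.67 and 11.83 to 12.55. Of melanocyte markers 1 of 7 tested was lower (Sox10, -0.50), and 0 of 4 tested muscle markers and 0 of 5 tested Schwann cell and neuron markers passed. Among all tested targets, 11.8% were higher and 9.93% lower at any fold. The part of these cell types in the HoxC values was not tested.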

How the data were processed

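The deposited files are 1 Agilent Feature Extraction 12.0.1.1 output per array, with median spot and background intensity per channel, background flags and the log10 ratio of the Cy5 to the Cy3 signal, and a table of log2 values. The authors' log2 table equalled the Feature Extraction ratio, turned to sample over reference, to within 7.87e-06, so its scale and direction are known and it was not centred. Its column medians were 0.03 to 0.14. The authors amplified 100 ng of RNA per sample. Probe annotation followed mm9, so coordinates are printed only for the RefSeq promoter.

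Intensities were background corrected (normexp, offset 50) and loess-normalised within arrays with limma 3.58.1 in R 4.3.3, with control and outlier spots at weight 0 in the loess. Of 29796 probes with a RefSeq accession, 28026 matched a symbol. The brightest probe of each gene was kept where 3 or more of the 4 arrays of either genotype had the sample's signal well above background, which left 23135 targets, with 19 missing values and none in a HoxC probe. Ratios were fitted in limma with genotype and dye, and p-values were adjusted by Benjamini-Hochberg over all targets. On simulated data of this size, 196 and 199 of 200 genes changed 3-fold were recovered in 2 runs, with 1 and 2 false calls. The deviations of same-numbered samples correlated at 0.33 to 0.68, and the number also marks the dye. With the dye removed, the correlation was 0.13 for replicates 1 and 3 and 0.46 for replicates 2 and 4. The replicate number was therefore tried as a block. The number of arrays limits the precision. All HoxC genes, Eed, their paralogues, the listed genes that passed (at most 3 per list) and the 3 profiles nearest to each called member are named, except 1 gene that is not reported here. The members and lists were chosen with earlier results of these data known.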

Additional observations from a re-analysis of the deposited data

How the results depend on the processing

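Hoxc4, Hoxc5, Hoxc6 and Hoxc9 kept their direction and an adjusted p below 0.05 under every alternative run. The count of HoxC genes called lower was 2 with no background correction, with the Feature Extraction log ratio, with the deposited table, and with the Feature Extraction log ratio without control replicate 3 (chosen after seeing the data), Hoxc5 joining Hoxc4 each time. It was 1 to 2 when each array was left out, Hoxc5 joining without control replicate 1. The count called higher was 2 with the Feature Extraction log ratio, with or without that array, and with the deposited table, Hoxc11 joining Hoxc9. It was 1 whichever array was left out. With the replicate number as a block, 1 was called higher and 1 lower, and 6 passed at any fold, Hoxc10 being the addition, and no other HoxC call changed. Hoxc10 also passed with the Feature Extraction log ratio, with or without that array, and with the deposited table. It entered these fits only through its EED cKO arrays, so the passes of Hoxc10 are not taken as support. The change of Hoxc8, near 0, was above 0 with the deposited table (0.0282), the Feature Extraction log ratio (0.0282) and with the Y-linked covariate (0.0061), and ran from -0.106 to 0.0534 when each array was left out. Hoxc11 lost its adjusted p below 0.05 in the methods' t-test (0.165). Over all targets, 278 were called (255 higher, 23 lower), against 698 (592 and 106) with the Feature Extraction log ratio, 212 (156 and 56) with median centring, and, in the methods' t-test, 275 at the study's threshold on unadjusted p and 175 after Benjamini-Hochberg. The cause of these shifts was not tested. Aquantile leaves the ratios as they are.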
